A study of Mus musculus with 16 samples.

Results

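The genes described here are 41 genes of mitosis and chromosome segregation, chosen by name for their textbook functions, with earlier results of these data known. All 41 were found in the count tables of both days, among 19964 genes listed in both. RNA was sequenced from organoids of mouse jejunal epithelium, which are cultured crypts that grow stem, Paneth, goblet and absorptive cells. Every group was C57BL/6, carried loxP-flanked alleles of Hnf4a on both chromosomes, and carried CreERT2, a tamoxifen-activated recombinase driven by the epithelial Villin promoter. The 4 groups of 4 libraries each were 4OHT day 4, DMSO day 4, 4OHT day 2 and DMSO day 2. The 4OHT organoids had 0.5 µM 4-hydroxytamoxifen for 24 h to delete Hnf4a and were then split, and the DMSO organoids had the solvent. All groups carried the recombinase, and only the 4OHT groups had its activator. An action of 4OHT itself, an action of the activated recombinase and the loss of Hnf4a therefore cannot be told apart. The labels' protocol describes only a harvest 4 days after the organoids were last passaged and not one at day 2, so the days are used as the labels name them. Nothing in the labels ties a replicate to its own animal or culture, so the spread behind every p-value is that between libraries and may be technical.

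Cells enter mitosis when cyclin B activates the kinase Cdk1, with the Polo and Aurora kinases acting beside it. Kinetochores built on the centromeres capture spindle microtubules, and the spindle checkpoint holds back the anaphase-promoting complex (APC/C) until every chromosome is attached. After chromosomes separate, the central spindle and a contractile ring divide the cell. Most of these genes are transcribed late in the cell cycle, so in tissue their RNA marks dividing cells, which in the intestine are the stem and progenitor cells of the crypt. In RNA from whole organoids, fewer dividing cells and less RNA in each dividing cell cannot be told apart.

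Library totals were 63.8 M to 93.3 M counts, and the 10 most abundant genes took 5.04% to 6.11% of a library. Hnf4a, the targeted gene, had 472, 493, 465 and 454 CPM (counts relative to TMM-scaled library size) in 4OHT organoids at day 4, against 961, 978, 970.4 and 972 CPM in DMSO organoids. At day 2 it had 518, 532, 505 and 479 CPM in 4OHT organoids and 999.8, 1037, 1051 and 985 CPM in DMSO organoids. Hnf4a levels of 4OHT and DMSO libraries did not overlap on either day, and these counts per gene include any exons outside the floxed part. Among markers of other cells, Ptprc of leukocytes reached at most 0.0900 CPM, Cd3e of T cells 0.0679 CPM, Pdgfra of stromal cells 0.173 CPM and Col1a1 of fibroblasts 0.238 CPM in any library. Higher maxima were those of Vim, of mesenchymal cells, at 9.21 CPM, Cd68, of macrophages, at 5.81 CPM and Pdgfrb, of pericytes, at 2.24 CPM. Of 10 stromal and 9 immune and endothelial markers, 5 each were listed in both tables, and their summed levels were 8.16 to 11.4 CPM and 2.23 to 6.28 CPM over the 16 libraries. Epithelial markers were abundant, and the summed level of 14 enterocyte markers was 8548 to 21054 CPM over the 16 libraries.

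All 41 members passed the filter on low counts in every comparison, and the lowest count of a member in a library was 1254. Scaled to exon length and averaged over 16 libraries, levels were 73.1 CPM per kb for Stmn1, which encodes a protein that destabilises microtubules, and 71.4 CPM per kb for Cdc20, the activator of the APC/C. Plk1, the Polo kinase, followed at 50.2 CPM per kb. At the other end, the kinetochore gene Ndc80 had 3.43 CPM per kb and the large kinetochore gene Cenpf 4.11 CPM per kb. The coefficient of variation within a group had a median over members of 5.02% in 4OHT day 4, 3.76% in DMSO day 4, 4.47% in 4OHT day 2 and 5.01% in DMSO day 2. The largest, 25.8%, was that of Mki67 in 4OHT day 4.

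Promoters of such genes often hold a CHR (cell cycle genes homology region), which is bound by MuvB-type complexes, and CCAAT boxes, which are bound by NF-Y. The RefSeq promoter table (GRCm38.p6, 250 bases before to 50 after the start) matched 34 of the 41 members. It held no match by symbol for Smc4, Stmn1, Tpx2, Spc24, Kif20a, Aurkb and Incenp. Within 100 bases before to 50 after the start, the CHR letters TTTGAA, which the other strand reads as TTCAAA, and the palindrome TTCGAA were searched together and stood in 26 of the 34 members, or 76.5%, against 9.87% of all 27025 genes in the table. The CCAAT letters, which the other strand reads as ATTGG, stood in 67.6% of the members and in 26.3% of all genes, and both motifs in 58.8% of the members and 2.4% of all genes. The CHR letters stood in 49.2% of 65 further mitosis genes, in 7.69% of 39 DNA replication genes and in 5% of 20 p53 targets. The 4 promoters shown, each 120 bases before to 30 after the start, belong to the members with the smallest p at day 4 among those with a match, and capitals mark CHR and CCAAT matches.
Cdk1 (chr10:69352883-69353032, minus strand): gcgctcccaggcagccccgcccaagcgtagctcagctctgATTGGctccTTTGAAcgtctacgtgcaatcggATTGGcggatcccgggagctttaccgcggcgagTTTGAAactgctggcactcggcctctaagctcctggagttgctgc
Smc2 (chr4:52439101-52439250, plus strand): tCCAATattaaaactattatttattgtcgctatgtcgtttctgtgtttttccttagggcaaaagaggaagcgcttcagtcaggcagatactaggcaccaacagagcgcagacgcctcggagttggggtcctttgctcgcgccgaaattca
Cdca8 (chr4:124936888-124937037, minus strand): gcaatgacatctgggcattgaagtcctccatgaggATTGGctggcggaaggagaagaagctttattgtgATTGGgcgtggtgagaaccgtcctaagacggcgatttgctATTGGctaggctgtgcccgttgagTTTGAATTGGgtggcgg
Ncapg (chr5:45669805-45669954, plus strand): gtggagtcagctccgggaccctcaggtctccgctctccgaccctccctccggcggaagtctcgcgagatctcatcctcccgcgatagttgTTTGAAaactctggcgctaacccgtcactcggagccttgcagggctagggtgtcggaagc
Cdk1 had 2 CHR matches, at positions -71 and -15 counted to the start, and 2 CCAAT matches, at -80 and -48. In Cdca8 the CHR match at 14 and a CCAAT match at 19 share 1 base. The stretch shown for Cdca8 lies inside the annotated gene (GRCm38 chromosome 4, 124918465 to 124939311, minus strand). Its positions count to the start in the promoter table and not to that end of the gene. The CHR match of Smc2 lies at 27 to 32 and runs past the stretch shown. The CCAAT match marked in Smc2, at -119 to -115, lies outside the 100 bases before the start and is not counted in the shares above. A match is a run of letters and not a measured binding site.

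At day 4 the mitosis genes were lower as a group in 4OHT organoids. By edgeR's quasi-likelihood test with Benjamini-Hochberg adjustment over all 16040 genes tested, 31 of 41 members (75.6%) fell at an adjusted p below 0.05 and 0 rose. The background was 11.1% of all genes lower and 13.7% higher. The median log2 fold change of the members was -0.23, or a change of -14.6%, against -0.01 over all genes. The members ranged from -0.53 for Stmn1 to 0.00 for Kif23, and 40 of 41 values were negative. In 31 members every 4OHT library was below every DMSO library, as in 13.5% of all genes. These were not the same 31 members. Bub1 and Spc25 fell by the test but their groups overlapped, and Anln and Ect2 were apart but not called. The summed level of the 41 members was 3511 ± 231 CPM in 4OHT day 4 and 4152 ± 106 CPM in DMSO day 4 (SD, n = 4). Same-numbered libraries deviated together at day 4, and a fit blocked on that number called 39 members lower by edgeR, where the background was 22.2% of all genes lower. The members not called without a block were Plk1, Cenpe, Cenpf, Ndc80, Kif4, Anln, Ect2, Mki67, Cdc20 and Kif23, and all but the last 2 were called with it.

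**Figure D1:**
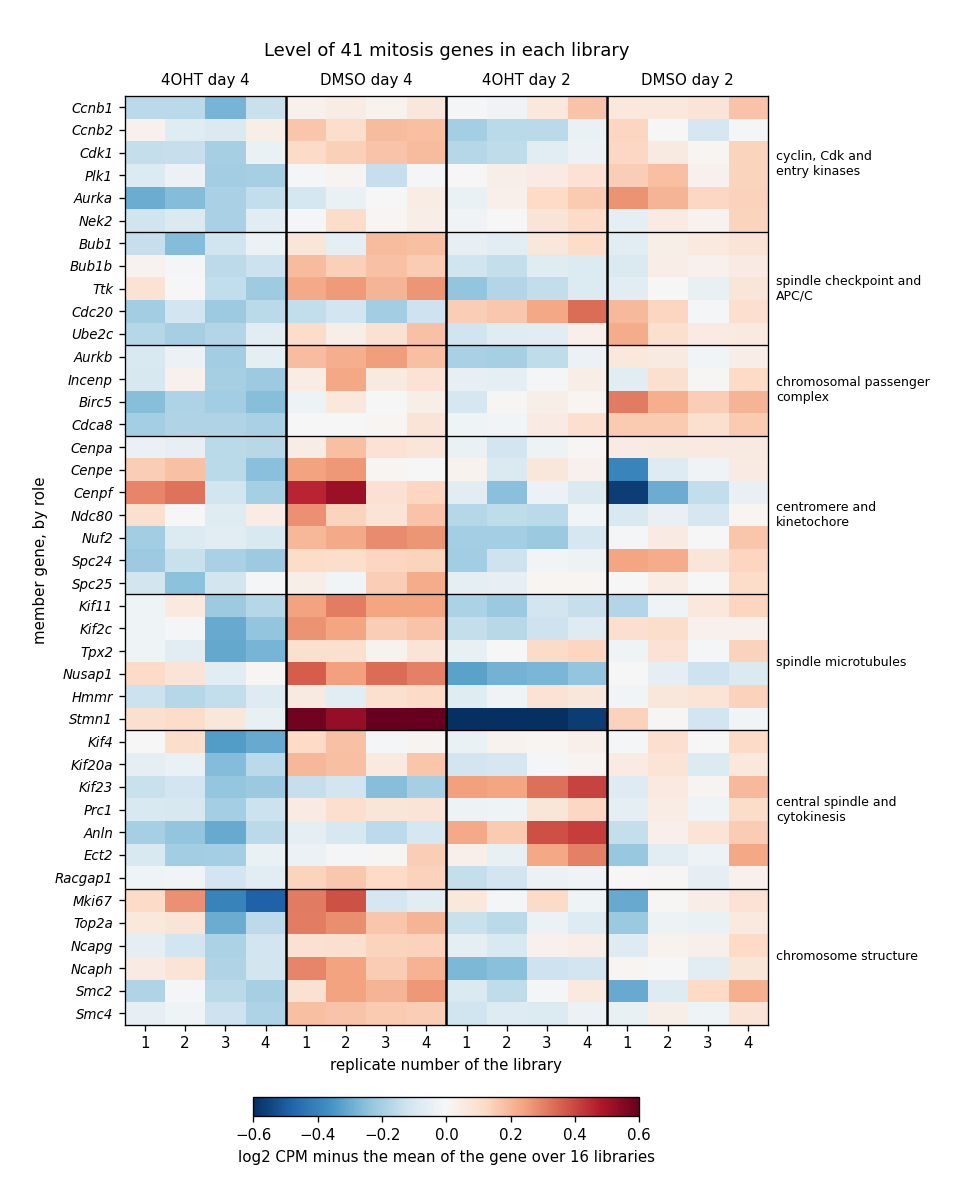
Level of each of the 41 members (rows, by role) in each of the 16 libraries (columns, by group and replicate number), as log2 CPM minus the mean of the gene over 16 libraries. Colours saturate at the ends of the scale. Most squares of 4OHT day 4 are below those of DMSO day 4, and Stmn1 spans the widest range, with its lowest levels in 4OHT day 2 and its highest in DMSO day 4.

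Of the 6 genes of mitotic entry, 5 fell at day 4. Cdk1 (ENSMUSG00000019942, GRCm38 chromosome 10, 69335146 to 69352938, minus strand), the kinase that drives entry, had 75.8, 76.0, 73.0 and 81.4 CPM in 4OHT organoids, against 90.7, 92.4, 94.2 and 95.6 CPM in DMSO organoids. The groups did not overlap, and the log2 fold change was -0.28 ± 0.04 (SE; edgeR adjusted p = 0.00152). Ccnb1, cyclin B1, had 76.6, 76.6, 70.5 and 77.9 CPM in 4OHT organoids and 87.2, 88.2, 86.8 and 89.8 CPM in DMSO organoids (-0.22 ± 0.04; edgeR adjusted p = 0.00485). Here too every 4OHT library was below every DMSO library. Ccnb2, the second B-type cyclin, Aurka, the centrosomal Aurora kinase, and Nek2, a kinase of centrosome separation, fell by log2 0.18, 0.20 and 0.15. Plk1 had 104, 107, 95.4 and 95.9 CPM in 4OHT organoids and 109.6, 111, 100.1 and 109.6 CPM in DMSO organoids, and its groups overlapped through DMSO replicate 3. Its log2 fold change was -0.10 ± 0.06 (edgeR adjusted p = 0.237), and -0.10 ± 0.03 with the replicate block (edgeR adjusted p = 0.0241).

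Among 5 genes of the spindle checkpoint and the APC/C, 4 fell. Ttk, the checkpoint kinase also named Mps1, had 31.5, 29.8, 26.8 and 25.6 CPM in 4OHT organoids, against 34.8, 35.5, 34.2 and 35.7 CPM in DMSO organoids (-0.30 ± 0.07; edgeR adjusted p = 0.00763). Bub1 and Bub1b, a kinase and a scaffold of the checkpoint, fell by 0.23 each on the log2 scale, and Ube2c, the APC/C's ubiquitin-conjugating enzyme, fell by 0.25. Cdc20, the protein that the checkpoint holds back, had 115, 122, 114 and 119 CPM in 4OHT organoids and 119.6, 122, 115 and 122 CPM in DMSO organoids. These ranges overlapped almost wholly, and its log2 fold change of -0.03 ± 0.04 did not pass the test with or without the block (edgeR adjusted p = 0.715 without it).

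All 4 genes of the chromosomal passenger complex, which corrects faulty microtubule attachments, fell at day 4. Its kinase Aurkb (ENSMUSG00000020897, GRCm38 chromosome 11, 69045647 to 69051664, plus strand) had 58.7, 60.9, 54.0 and 59.9 CPM in 4OHT organoids and 71.0, 72.6, 74.4 and 70.8 CPM in DMSO organoids (-0.30 ± 0.05; edgeR adjusted p = 0.00153). Birc5, the subunit survivin, had 52.8, 55.4, 54.6 and 52.9 CPM in 4OHT organoids and 61.7, 65.9, 63.0 and 64.5 CPM in DMSO organoids (-0.24 ± 0.04; edgeR adjusted p = 0.00242). In both genes the groups were apart. Cdca8, the subunit borealin, and Incenp, the scaffold, fell by 0.21 and 0.22 on the log2 scale.

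Of 7 centromere and kinetochore genes, 4 fell. The NDC80 complex, which binds microtubule ends, has 4 subunits, and 3 of them fell. Nuf2 had 26.9, 29.4, 29.8 and 29.2 CPM in 4OHT organoids and 35.7, 36.4, 37.9 and 37.4 CPM in DMSO organoids (-0.35 ± 0.05; edgeR adjusted p = 0.000609). Spc24 had 22.0, 23.3, 22.4 and 22.0 CPM in 4OHT organoids and 27.7, 27.6, 28.0 and 28.1 CPM in DMSO organoids (-0.31 ± 0.04; edgeR adjusted p = 0.000717). Both were lower in every 4OHT library. Spc25 fell by 0.21, while Ndc80 itself had a log2 fold change of -0.15 ± 0.06 (edgeR adjusted p = 0.0919; 0.00776 with the block). Cenpa, the histone H3 variant of centromeres, fell by 0.20. Cenpe, a kinetochore motor, and Cenpf had log2 fold changes of -0.14 ± 0.11 and -0.22 ± 0.14, with standard errors among the largest of the members.

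All 6 genes of spindle microtubules fell, and their median was the lowest of the 7 roles, at -0.31 on the log2 scale. Stmn1 (ENSMUSG00000028832, GRCm38 chromosome 4, 134468320 to 134473843, plus strand) had 144, 145, 140.4 and 130.2 CPM in 4OHT organoids, against 200.2, 193, 204 and 211 CPM in DMSO organoids. Its log2 fold change of -0.53 ± 0.05 was the largest of the members (edgeR adjusted p = 5.8e-05). Kif2c, a kinesin that depolymerises microtubules, had 38.7, 39.0, 31.9 and 33.3 CPM in 4OHT organoids and 47.4, 46.4, 43.5 and 44.2 CPM in DMSO organoids (-0.34 ± 0.07; edgeR adjusted p = 0.00634). Neither gene's groups overlapped. Kif11, the kinesin that slides spindle poles apart, fell by 0.34, Nusap1, a microtubule bundler, by 0.28, Tpx2, which activates Aurora A, by 0.24, and Hmmr, a spindle pole protein, by 0.18.

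Of 7 genes of the central spindle and cytokinesis, 3 fell: Kif20a, a kinesin of the central spindle, by 0.28, Prc1, a crosslinker of antiparallel microtubules, by 0.20, and Racgap1, the GTPase-activating subunit of centralspindlin, by 0.19. Kif23, the kinesin of centralspindlin, had 99.5, 101, 92.7 and 93.4 CPM in 4OHT organoids and 98.9, 101, 91.4 and 94.9 CPM in DMSO organoids. The groups overlapped wholly, and the log2 fold change was 0.00 ± 0.05 (edgeR adjusted p = 0.971). Anln, the ring scaffold anillin, had 54.3, 52.9, 50.6 and 55.8 CPM in 4OHT organoids and 60.0, 58.3, 55.9 and 58.0 CPM in DMSO organoids, with 4OHT replicate 4 just below the lowest DMSO library. Its log2 fold change was -0.12 ± 0.05 (edgeR adjusted p = 0.0896), and it was called with the block (edgeR adjusted p = 0.012). The block also brought calls for Ect2, the activator of the ring's GTPase (-0.16 ± 0.03; edgeR adjusted p = 0.00246), and for Kif4, a chromosome-bound kinesin (-0.20 ± 0.04; edgeR adjusted p = 0.00292).

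Among 6 genes of chromosome structure, 5 fell. Top2a, the topoisomerase that untangles sister DNA, had 361, 365, 282 and 309.9 CPM in 4OHT organoids and 427, 420.0, 388 and 398 CPM in DMSO organoids (-0.31 ± 0.08; edgeR adjusted p = 0.0224). Smc2, a core subunit of condensin, had 95.5, 108, 96.8 and 94.3 CPM in 4OHT organoids and 115, 128, 125 and 129.7 CPM in DMSO organoids (-0.34 ± 0.06; edgeR adjusted p = 0.00186). Both genes were lower in every 4OHT library, and the condensin genes Smc4, Ncapg and Ncaph fell by 0.26, 0.23 and 0.26. Mki67 (ENSMUSG00000031004, GRCm38 chromosome 7, 135689784 to 135716361, minus strand), the proliferation marker Ki-67, had 325, 364, 228 and 215 CPM in 4OHT organoids and 373, 393, 280.4 and 288 CPM in DMSO organoids. Replicates 1 and 2 were high and replicates 3 and 4 low in both groups, so the groups overlapped although each 4OHT library was below the DMSO library of its number. Its log2 fold change was -0.24 ± 0.18 (edgeR adjusted p = 0.387) without the block and -0.25 ± 0.04 (edgeR adjusted p = 0.000738) with it.

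**Figure D2:**
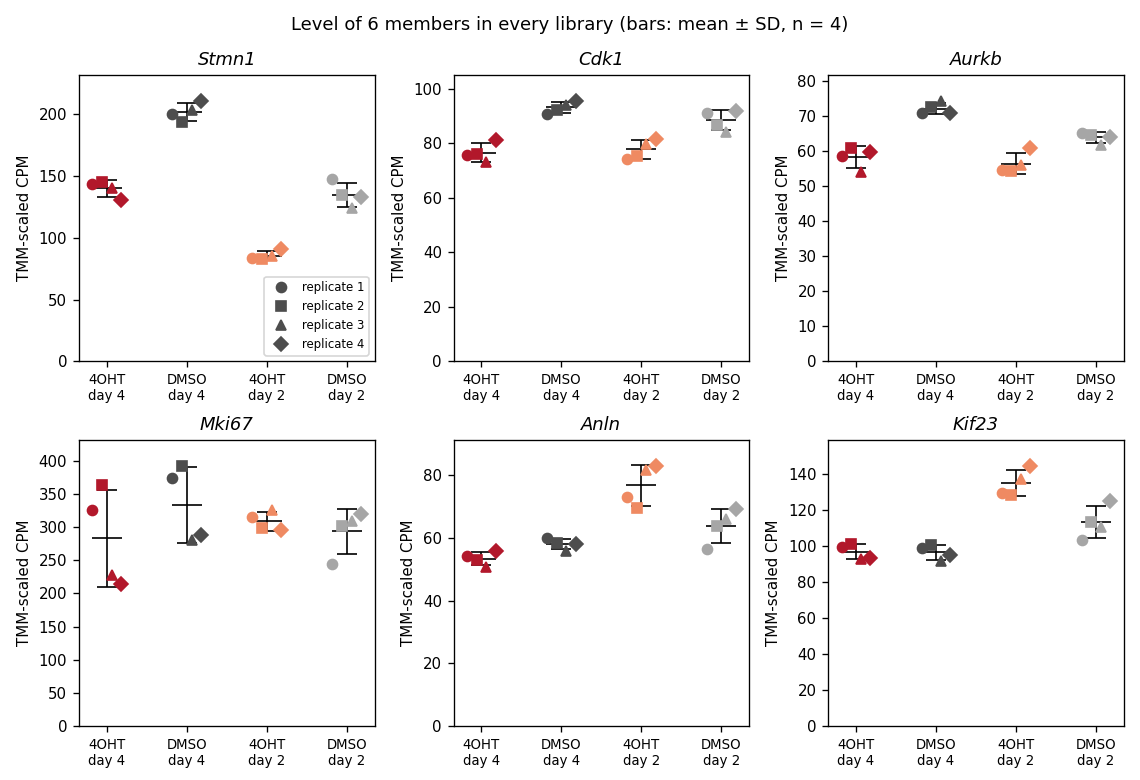
Level (TMM-scaled CPM) of Stmn1, Cdk1, Aurkb, Mki67, Anln and Kif23 in every library, with 4OHT left of DMSO for each day, 1 symbol per replicate number, and bars for mean ± SD (n = 4). Stmn1, Cdk1 and Aurkb have no overlap between 4OHT and DMSO on either day, Mki67 splits by replicate number at day 4, and Anln and Kif23 are higher in 4OHT than in DMSO at day 2 but not at day 4.

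Within same-numbered pairs of day 4, 40 of the 41 members were lower in the 4OHT library of all 4 pairs. The share of all genes lower in all 4 pairs was not computed, so this count has no background. The median log2 difference over members was -0.19 in replicates 1 and 2 and -0.27 in replicates 3 and 4. Mki67 differed by -0.15 in replicates 1 and 2 and by -0.36 in replicates 3 and 4, and Top2a by -0.22 and -0.41. This split by replicate number was chosen after seeing the data. Of the 31 calls, 24 held whichever library was left out, and the count was 24 to 30. Over these fits 1253 to 1737 genes were lower, of 16156 to 16284 tested. Calls of Nek2 and Incenp ended in 7 of 8 such fits, those of Spc25 and Tpx2 in 6, that of Bub1 in 5, that of Hmmr in 3 and that of Top2a in 2, with edgeR adjusted p up to 0.118 for Spc25. Exons of Plk1, Nek2, Cdc20, Ube2c, Cdca8, Nusap1, Kif4, Kif20a, Prc1 and Ncapg overlap exons on the other strand, and the strand setting of the counting is not given in the sources used here. Ccnb1, Ccnb2 and Kif4 have named pseudogenes. The values of these genes are uncertain to that extent.

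By promoter letters, 17 of 26 members with a CHR match fell at day 4, with a median log2 fold change of -0.21, and 7 of 8 without one, with a median of -0.25. With a CCAAT match 16 of 23 fell (median -0.20), and without one 8 of 11 (median -0.24).

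Other genes of the cell cycle were also lower at day 4. Of 78 further mitosis genes, 44 fell and 0 rose by edgeR (median log2 fold change -0.23), among them Pbk, a mitotic kinase (-0.49 ± 0.05; edgeR adjusted p = 0.000124). Of 49 DNA replication genes, 45 fell and 0 rose (median -0.31), with Pcna, the polymerase clamp, at -0.31 ± 0.05 (edgeR adjusted p = 0.000978) and Prim1, a primase subunit, at -0.45 ± 0.05. Of 21 regulators of G2/M transcription, 9 fell and 0 rose (median -0.16), and 14 fell and 1 rose with the block. E2f1, an activator of S phase genes, fell (-0.38 ± 0.06; edgeR adjusted p = 0.0013). Of 23 cohesin and APC/C subunits, many of which are made throughout the cell cycle, 6 fell and 0 rose (median -0.09), and 14 fell and 1 rose with the block. Of 27 tested p53 targets, 18 rose and 0 fell (median 0.39); this list holds Gtse1, which is itself a G2/M gene. Ccng1 rose (0.92 ± 0.16), as did Cdkn1a, the inhibitor p21 (0.56 ± 0.16; edgeR adjusted p = 0.0277).

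Markers of some cell types also differed between the treatments at day 4, where 13.7% of all genes were higher and 11.1% lower. Of 16 markers of crypt base stem cells, which are a dividing population, 11 fell and 0 rose at day 4, and their summed level was 4003 to 4483 CPM in 4OHT organoids and 5208 to 5659 CPM in DMSO organoids. Of 12 goblet cell markers, 8 rose and 0 fell, with summed levels of 7545 to 9503 CPM in 4OHT organoids and 4183 to 5362 CPM in DMSO organoids. Of 10 Paneth cell markers 5 fell and 1 rose, and of 14 enterocyte markers 3 rose and 0 fell. The summed Paneth markers were 2256 to 2454 CPM in 4OHT organoids and 2497 to 3091 CPM in DMSO organoids, and the summed enterocyte markers were 15074 to 21054 CPM in 4OHT organoids and 16878 to 18025 CPM in DMSO organoids. Of 10 enteroendocrine markers 1 rose and 1 fell, and of 7 tuft cell markers 1 rose. With the block 5 enterocyte, 3 tuft and 2 Paneth markers rose, and of the enteroendocrine markers 2 rose and 2 fell. The blocked fit called 22.8% of all genes higher and 22.2% lower. Of 4 stromal markers tested 1 rose, and the 2 immune and endothelial markers tested were not called. The part of these shifts in the values of the mitosis genes was not tested.

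**Figure D3:**
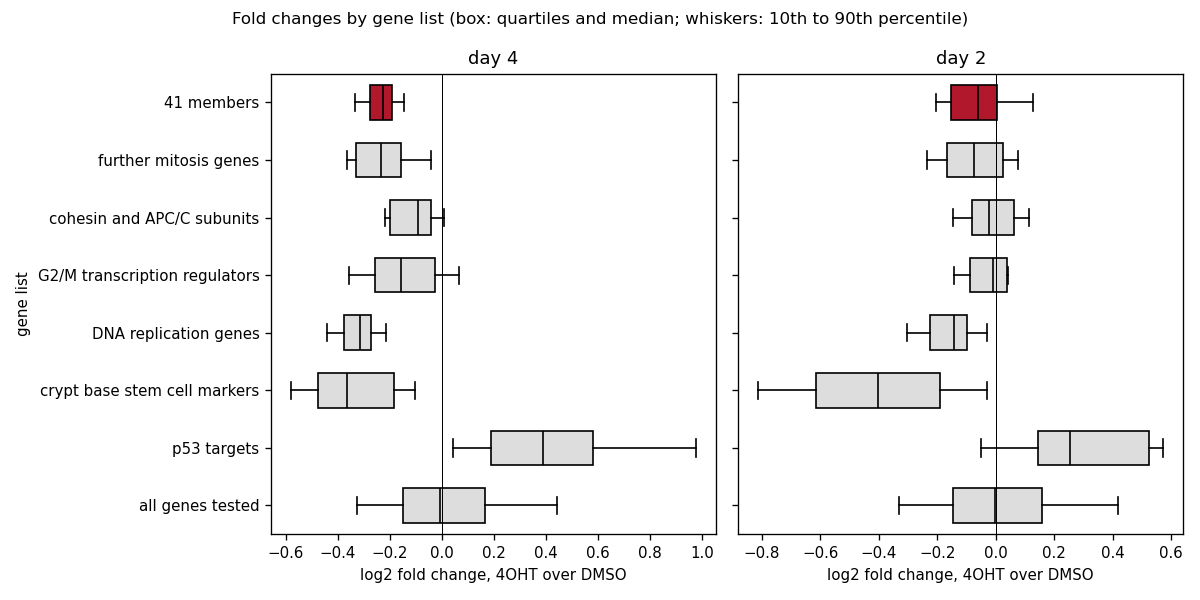
Log2 fold changes of 4OHT over DMSO at day 4 (left) and day 2 (right) for the 41 members, other gene lists and all genes tested (boxes are quartiles with the median, whiskers run from the 10th to the 90th percentile). At day 4 the boxes of members, further mitosis genes and DNA replication genes lie below 0 and that of p53 targets above 0, and at day 2 the members' box reaches 0.

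At day 2 fewer members were called, and in both directions. By edgeR, 11 members fell (26.8%, against 14.3% of all genes) and 2 rose (4.88%, against 16.9% of all genes) of 15897 genes tested. The median log2 fold change was -0.06, and 30 of 41 values were negative. Groups were apart in 12 members that were lower, as in 15.8% of all genes, and in 2 that were higher, as in 16.6% of all genes. The members that fell were Cdk1, Ttk, Ube2c, Aurkb, Birc5, Nuf2, Spc24, Kif2c, Nusap1, Stmn1 and Ncaph. All 11 were among the 31 that fell at day 4, which makes 100% of the day 2 list and 35.5% of the day 4 list. Since 75.6% of the members fell at day 4, a large overlap was to be had from that share alone. The same overlap over all genes was not computed. The 2 treatment comparisons share no library, and across the 41 genes their log2 fold changes had a Pearson r of 0.79, or 0.70 without Stmn1, given as a description since genes are not independent replicates. Summed over the members, the level was 3681 ± 143 CPM in 4OHT day 2 and 3829 ± 154 CPM in DMSO day 2 (SD, n = 4), and these ranges overlapped.

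**Figure D4:**
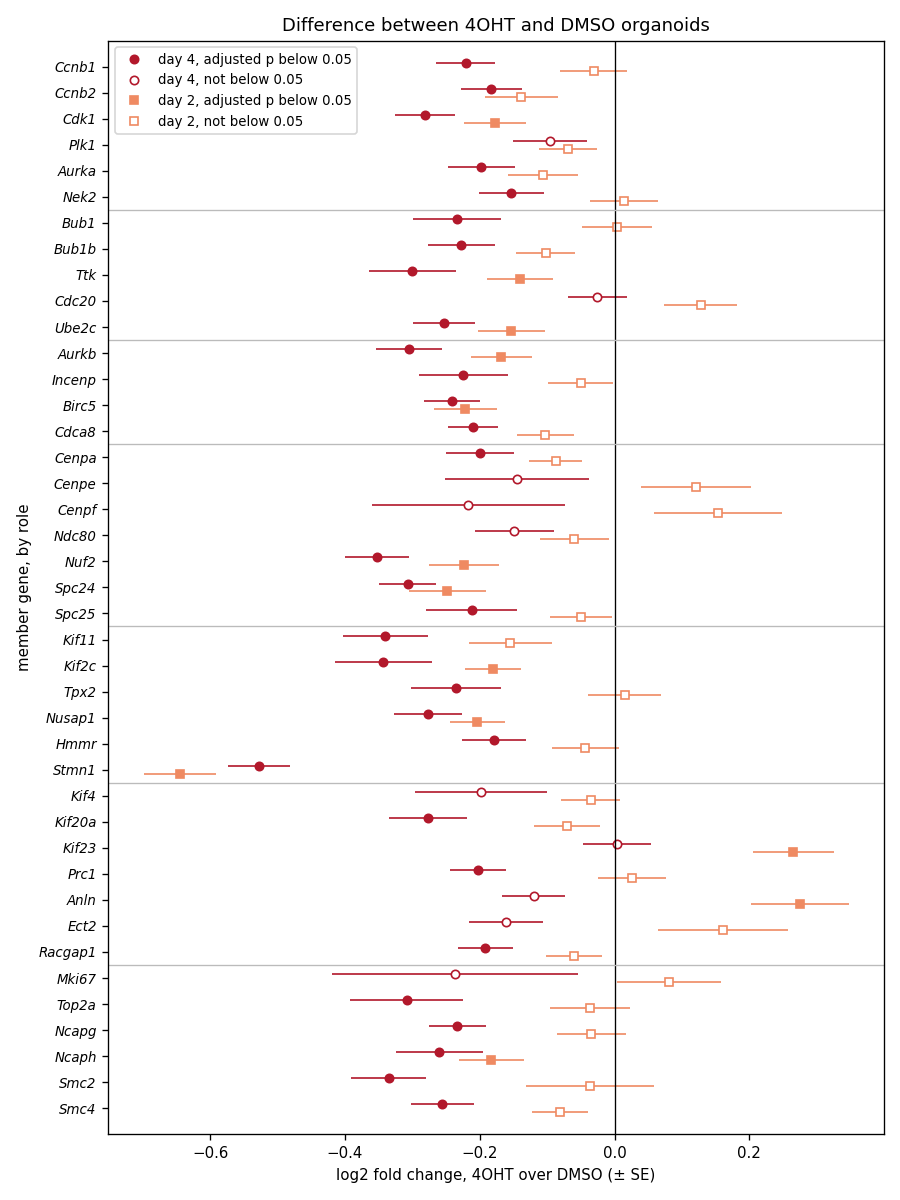
Log2 fold change of 4OHT over DMSO (± SE) for each member at day 4 (circles) and day 2 (squares), with filled symbols for an edgeR adjusted p below 0.05 and grey lines between roles. At day 4, 31 symbols are filled and lie left of 0. At day 2, 11 filled symbols lie left of 0 and those of Kif23 and Anln lie right of it.

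Stmn1 had the largest change at day 2 as well. It had 83.4, 82.9, 85.1 and 90.5 CPM in 4OHT organoids, against 148, 135, 124 and 133 CPM in DMSO organoids (-0.64 ± 0.05; edgeR adjusted p = 4.09e-06). Spc24 had 22.2, 23.5, 25.3 and 25.1 CPM in 4OHT organoids and 30.2, 29.9, 26.9 and 28.0 CPM in DMSO organoids (-0.25 ± 0.06; edgeR adjusted p = 0.00617). The groups were apart in both genes. Birc5 had 58.9, 63.4, 64.6 and 63.5 CPM in 4OHT organoids and 78.4, 73.4, 69.9 and 72.5 CPM in DMSO organoids (-0.22 ± 0.05; edgeR adjusted p = 0.00397). Nusap1 had 50.8, 52.0, 52.4 and 53.9 CPM in 4OHT organoids and 63.5, 61.2, 58.3 and 59.7 CPM in DMSO organoids (-0.20 ± 0.04; edgeR adjusted p = 0.00289). Kif2c had 35.7, 35.1, 36.1 and 37.2 CPM in 4OHT organoids and 42.2, 42.3, 40.0 and 40.0 CPM in DMSO organoids (-0.18 ± 0.04; edgeR adjusted p = 0.00596). These 3 genes were also lower in every 4OHT library. Cdk1 had 74.4, 75.3, 79.8 and 81.6 CPM in 4OHT organoids and 91.3, 86.9, 84.3 and 91.9 CPM in DMSO organoids (-0.18 ± 0.05), and Aurkb had 54.5, 54.4, 56.1 and 61.0 CPM in 4OHT organoids and 65.3, 64.7, 61.8 and 64.2 CPM in DMSO organoids (-0.17 ± 0.05). The calls of Ttk and Ube2c ended in 5 of the 8 fits that left out a library, with edgeR adjusted p up to 0.110 for Ttk and 0.0865 for Ube2c.

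The 2 members that rose at day 2 both act in cytokinesis. Kif23 had 129, 128, 137 and 144 CPM in 4OHT organoids and 103, 113, 110.2 and 125 CPM in DMSO organoids, with a log2 fold change of 0.27 ± 0.06 (edgeR adjusted p = 0.00593). Anln (ENSMUSG00000036777, GRCm38 chromosome 9, 22332012 to 22389188, minus strand) had 72.9, 69.6, 81.5 and 83.0 CPM in 4OHT organoids and 56.5, 63.7, 66.0 and 69.3 CPM in DMSO organoids, with a log2 fold change of 0.28 ± 0.07 (edgeR adjusted p = 0.0129). Every 4OHT library was above every DMSO library, by a small margin in Anln. With 4OHT replicate 3 of day 2 left out, Anln missed the threshold (edgeR adjusted p = 0.0528). Their role as a whole had a median of 0.03 at day 2, and Ect2 had 0.16 ± 0.10 without passing the test (edgeR adjusted p = 0.234).

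Ccnb1 and Top2a, which fell at day 4, were not called at day 2. Ccnb1 had 84.9, 84.4, 89.3 and 96.4 CPM in 4OHT organoids and 89.5, 89.4, 90.2 and 96.3 CPM in DMSO organoids (-0.03 ± 0.05; edgeR adjusted p = 0.681). Top2a had 315, 309, 337 and 328 CPM in 4OHT organoids and 297, 339, 337 and 359 CPM in DMSO organoids (-0.04 ± 0.06; edgeR adjusted p = 0.687). Both pairs of groups overlapped. Mki67, Plk1 and Cdc20, which were not called at day 4 without the block, were not called at day 2 either. Mki67 had 315, 299, 326 and 295 CPM in 4OHT organoids and 244, 302, 309.5 and 319.6 CPM in DMSO organoids (0.08 ± 0.08; edgeR adjusted p = 0.461), with DMSO replicate 1 below all other libraries of the day. Plk1 had 109.8, 113, 114 and 117 CPM in 4OHT organoids and 122, 125, 112 and 121 CPM in DMSO organoids (-0.07 ± 0.04). Cdc20 had 147, 148, 156 and 167 CPM in 4OHT organoids and 151, 145, 131 and 142 CPM in DMSO organoids (0.13 ± 0.05; edgeR adjusted p = 0.095). In all 3 genes the groups overlapped.

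Transcript length moved with the treatment at day 2. Among all genes above a log2 CPM of 3, the median log2 fold change was 0.13 in 906 genes whose longest transcript has at least 7000 bases and -0.08 in 1904 genes under 2000 bases. At day 4 these medians were -0.02 and -0.01. Across the 41 members the log2 fold change had a Pearson r of 0.54 with the log of length at day 2 and of 0.14 at day 4. The 3 long members, Cenpe, Cenpf and Mki67, had a median of 0.12 at day 2, and 7 short members, Stmn1 among them, had -0.14. In DMSO day 2 replicate 1 long genes lay 0.19 below their group's mean on the log2 scale. At day 4 the 3 long members had median deviations of 0.22, 0.25, -0.19 and -0.28 in 4OHT replicates 1 to 4. In DMSO replicates 1 to 4 they had 0.16, 0.22, -0.21 and -0.17. The 7 short members had -0.01 to 0.05 in these libraries. All long genes had 0.05, 0.06, -0.07 and -0.04 in the 4OHT replicates, and -0.005, 0.07, -0.05 and -0.01 in the DMSO replicates. With the trend on length removed in each library, an alternative chosen after seeing the data, 14 members fell and 3 rose at day 2, where 15.1% of all genes were lower and 18.3% higher. Ttk was then no longer called (-0.12 ± 0.05; edgeR adjusted p = 0.0675), Bub1b, Cenpa, Kif11 and Smc4 were called lower, and Cdc20 was called higher (0.18 ± 0.05; edgeR adjusted p = 0.00886). Stmn1 then had -0.55 ± 0.04, Mki67 -0.07 ± 0.04, Kif23 0.26 ± 0.06 and Anln 0.24 ± 0.06. At day 4 the same 31 members fell with the trend removed, where 11.5% of all genes were lower.

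**Figure D5:**
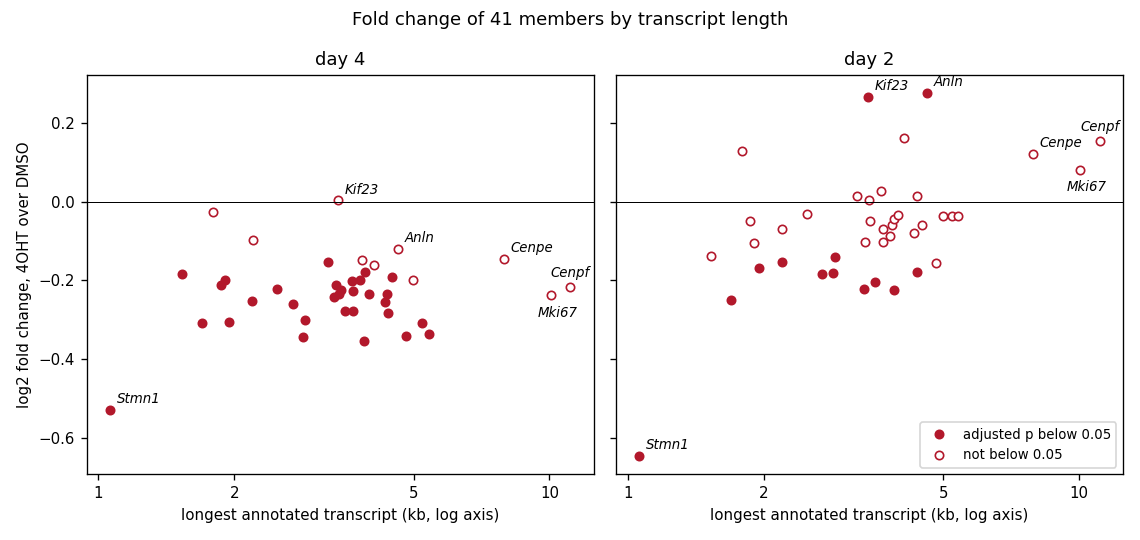
Log2 fold change of 4OHT over DMSO for each member against the length of its longest annotated transcript (kb, log axis) at day 4 (left) and day 2 (right), with filled points for an edgeR adjusted p below 0.05. At day 2 the 3 longest members lie above 0 and the shortest, Stmn1, at -0.64, while at day 4 long and short members lie at like values.

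The other cell cycle lists at day 2 had smaller medians than at day 4. Of 78 further mitosis genes, 18 fell and 2 rose by edgeR (median -0.07), of 49 DNA replication genes 21 fell and 0 rose (median -0.14), of 21 regulators of G2/M transcription 3 fell and 0 rose (median -0.01), and of 23 cohesin and APC/C subunits 3 fell and 3 rose (median -0.02). The background at day 2 was 14.3% of all genes lower and 16.9% higher. Prim1 was again among the replication genes that fell (-0.38 ± 0.04; edgeR adjusted p = 2.59e-05). Of 27 p53 targets, 20 rose and 2 fell (median 0.25), with Cdkn1a at 0.25 ± 0.05. Of 16 stem cell markers 10 fell and 2 rose, and their summed level was 1872 to 2086 CPM in 4OHT organoids and 2410 to 2780 CPM in DMSO organoids. Of 12 goblet markers 7 rose and 0 fell, of 9 Paneth markers 5 fell and 1 rose, and of 14 enterocyte markers 8 fell and 0 rose. The summed goblet markers were 7569 to 9704 CPM in 4OHT organoids and 5058 to 5845 CPM in DMSO organoids, and the summed enterocyte markers 8548 to 11771 CPM in 4OHT organoids and 11823 to 15761 CPM in DMSO organoids. Of 10 enteroendocrine markers 2 fell, and of 6 tuft, 3 stromal and 3 immune and endothelial markers 1 each rose, the last being Cd68 (0.40 ± 0.10; edgeR adjusted p = 0.00878). As at day 4, their part in the members' values was not tested.

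Whether the treatment difference itself changed between the days was tested as an interaction, the log2 fold change at day 4 minus that at day 2. The interaction was negative in 40 of 41 members, with a median of -0.16 against 0.01 over all genes. By edgeR only Anln passed the test (0.476% of 16597 genes were called lower and 1.2% higher). Its interaction was -0.39 ± 0.09 (edgeR adjusted p = 0.033), since its log2 fold change was -0.12 at day 4 and 0.28 at day 2. This call ended in 10 of the 16 fits that left out a library, with an edgeR adjusted p of up to 0.0897, reached with 4OHT replicate 3 of day 2 left out. Prc1 (-0.22 ± 0.07; edgeR adjusted p = 0.0865) and Kif23 (-0.26 ± 0.08; edgeR adjusted p = 0.102) came next and did not pass. With the replicate block at day 4 only, where numbers pair the libraries, 4 members passed and were lower (background 1.95% of all genes lower): Anln (-0.39 ± 0.09; edgeR adjusted p = 0.017), Kif23 (-0.26 ± 0.07), Bub1 (-0.23 ± 0.07) and Top2a (-0.27 ± 0.08), the last 3 at edgeR adjusted p of 0.0457, 0.0478 and 0.0478. This block was chosen after seeing the data. Stmn1 was the member with a positive interaction (0.12 ± 0.08; edgeR adjusted p = 0.422), which did not pass.

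The course from day 2 to day 4 was tested within each treatment. These comparisons use the same libraries as those between treatments, and anything else that differed between the harvests cannot be told apart from time. In 4OHT organoids 14 members were lower at day 4 and 2 higher by edgeR, with backgrounds of 23.5% of all genes lower and 25.9% higher. The days did not overlap in 11 lower and 2 higher members, against 22.2% and 23.6% of all genes. Anln (-0.53 ± 0.06; edgeR adjusted p = 7.54e-05), Kif23 (-0.48 ± 0.05) and Cdc20 (-0.40 ± 0.05) fell most. Stmn1 (0.71 ± 0.05; edgeR adjusted p = 3.62e-06) and Nusap1 (0.31 ± 0.05) rose. Scaling to library totals without TMM factors gave 8 lower and 4 higher in 4OHT organoids, where 20.3% of all genes were lower and 28.5% higher. The count of 14 lower members fell to 8 without 4OHT day 4 replicate 3 and without 4OHT day 2 replicate 4. It fell to 9 without 4OHT day 2 replicate 3. In these fits, in this order, 3304 of 16131, 3281 of 16151 and 3127 of 16192 genes were lower. The 2 higher members became 4 in the first 2 of these fits (3785 of 16131 and 3713 of 16151 genes higher).

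In DMSO organoids 16 members were higher at day 4 than at day 2 and 6 lower, with backgrounds of 28.7% of all genes higher and 24.8% lower. The days did not overlap in 14 higher and 6 lower members, against 24.9% and 23.5% of all genes. Stmn1 averaged 202 ± 7.25 CPM at day 4 and 135 ± 9.86 CPM at day 2 (SD, n = 4 each), and rose by 0.59 ± 0.06 (edgeR adjusted p = 2.83e-06). Nusap1 averaged 78.8 ± 2.72 CPM at day 4 and 60.7 ± 2.23 CPM at day 2, and Ttk 35.0 ± 0.69 CPM at day 4 and 29.5 ± 1.252 CPM at day 2, with log2 fold changes of 0.38 ± 0.05 and 0.25 ± 0.05. The others that rose were Cenpf, Top2a, Kif11, Cenpe, Ndc80, Ncaph, Nuf2, Aurkb, Bub1b, Ccnb2, Smc4, Racgap1 and Kif2c. The 6 that fell were Cdc20 (-0.25 ± 0.05), Kif23 (-0.22 ± 0.06), Aurka, Birc5, Plk1 and Cdca8. The count of 6 lower was 4 without DMSO day 4 replicate 1 or 3 and without DMSO day 2 replicate 2. In these fits, in this order, 3607 of 16243, 3605 of 16314 and 3692 of 16313 genes were lower. Of the fits that left out a library, 6 ended the call of Ccnb2 and 5 each those of Cenpe and Kif2c. The call of Cdca8 ended in 4, that of Plk1 in 3 and that of Racgap1 in 1.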

How the data were processed

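Per the labels' protocols, poly(A) RNA libraries were made from 250 ng of total RNA with a directional kit. The submitters' processing notes name bcl2fastq 1.8.4, STAR 2.4.0f1 and GRCm38. Which program counted the reads, and with which annotation and strand setting, is not given in the sources used here. The authors deposited 1 table of whole-number read counts per gene for each of 2 days, and the lowest sum of counts in a listed gene was 10. Another 16 per-sample columns of normalized values were not used. Groups follow the treatment and time point in the labels, and replicate numbers follow the titles.

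The test for all genes was the robust quasi-likelihood fit of edgeR 4.0.16 with limma 3.58.1 in R 4.3.3, after filterByExpr and TMM scaling. Calls had a Benjamini-Hochberg adjusted p below 0.05. Treatments were compared within the 8 libraries of a day, days within the 8 of a treatment, and the interaction was fitted over all 16. Standard errors were taken from F, as the log2 fold change over its square root. Printed CPM share a single TMM scaling over 16 libraries, and exon and transcript lengths come from GENCODE M21. Without molecular identifiers, counting error is a lower limit of the error.

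The members and all gene lists were chosen with earlier results of these data known. Values in every library are given for Mki67, Top2a, Cdk1, Ccnb1, Aurkb, Plk1, Cdc20 and Stmn1 and for the members with the smallest p or the extreme fold changes, and other genes are named from each list by smallest p or highest level.

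In genes above a log2 CPM of 3, deviations from group means correlated at 0.632 to 0.810 between same-numbered libraries of day 4, and each of the 8 was closest to the library of its own number. The pairing thus comes from the data. At day 2 the correlations were -0.110 to 0.475. For all 24 same-group pairs, counts differed beyond sampling noise, so each library was counted once (chi-square per degree of freedom 7.40 to 117.4).

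Alternatives were DESeq2 1.42.0, other scalings and filters, an adjusted p below 0.01, a replicate block, 1 fit over 16 libraries, and each library left out. The interaction block at day 4 only, the split of day 4 by replicate number and the removal of a length trend were added after seeing the data. On simulated counts for the day 4 comparison (16040 genes), 2% of genes changed 1.15-fold, 36% of genes changed 1.25-fold and 82% of genes changed 1.5-fold were recovered. For day 2 (15897 genes) these were 16%, 52% and 96%, and for the interaction (16597 genes) 8%, 20% and 66%. The simulation changed 50 genes per fold and called 117 genes at day 4 and 144 at day 2. The real comparisons called 3967 and 4950 genes, so the adjusted threshold was stricter in the simulation. The shares recovered therefore cannot be read as shares for the members.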

Additional observations from a re-analysis of the deposited data

Results flagged for a closer look

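Each member's 4 libraries of a group were checked for a library that stands apart from the other 3 by Dixon's test. Of 164 such sets 8 were flagged, and chance flags about 1 in 20. In 4OHT day 2, replicate 4 was the highest library for Ndc80 (22.0 CPM, others 19.71 to 19.96) and for Nuf2 (29.0 CPM, others 26.7 to 27.0). In DMSO day 4, replicate 3 was low for Plk1 (100.1 CPM, others 109.6 to 111.4) and replicate 2 was high for Kif11 (202 CPM, others 192.1 to 192.6). In DMSO day 2, replicate 1 was low for Bub1b (82.7 CPM, others 89.4 to 90.7) and for Cenpa (70.4 CPM, others 70.8), replicate 3 was low for Cdca8 (83.1 CPM, others 86.7 to 86.9), and replicate 4 was high for Ccnb1 (96.3 CPM, others 89.4 to 90.2). The 4 values of Cenpa lay within 1 CPM of each other.

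The difference between 4OHT and DMSO organoids differed between day 4 and day 2 in Anln by an interaction of -0.39 on the log2 scale (edgeR adjusted p = 0.033). It was -0.12 at day 4, where 4 of 4 libraries of 4OHT organoids were below all DMSO libraries, and 0.28 at day 2, where 4 of 4 were above them. The day 4 difference was not called without the block, and the margin was small (55.8 CPM in 4OHT replicate 4, 55.9 CPM in DMSO replicate 3). The interaction call ended in 10 of the 16 fits that left out a library.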

How the results depend on the processing

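At day 4, 31 lower members became 20 at an adjusted p below 0.01 (893 of 16040 genes lower). They became 24 to 30 with a library left out, with 0 higher in every fit. Over the fits with a library left out, 1253 to 1737 genes were lower, of 16156 to 16284 tested. At day 2, 11 lower and 2 higher became 6 and 1 at an adjusted p below 0.01 (1175 and 1801 of 15897 genes). They became 9 to 13 and 1 to 3 with a library left out, where 1660 to 2547 genes were lower and 2046 to 2604 higher, of 16002 to 16145 tested. Between days in 4OHT organoids, 14 lower and 2 higher became 8 and 4 with library totals (3242 and 4554 of 15962 genes). At an adjusted p below 0.01, 7 were lower (2596 of 15962 genes). With a filter of 1 CPM in 4 libraries, 4 were higher (3533 of 12432 genes). With the length trend removed, 6 were higher (4771 of 15885 genes). With a library left out, 8 to 15 were lower and 2 to 4 higher. Over those fits 3127 to 4056 genes were lower and 3497 to 4389 higher, of 16105 to 16192 tested. In DMSO organoids, 6 lower and 16 higher became 4 to 6 and 12 to 16 with a library left out. Over those fits 3605 to 4125 genes were lower and 3864 to 4462 higher, of 16239 to 16369 tested. For the interaction, 1 lower member became 3 by DESeq2 (247 of 16597 genes lower) and 0 at an adjusted p below 0.01 (11 of 16597 genes). With the replicate block at day 4 only, 4 were lower (background 1.95% of all genes lower). With a replicate block on both days, 14 were lower (background 4.1% of all genes lower). With a library left out, 0 to 4 were lower, where 28 to 225 genes were lower, of 16771 to 16798 tested. The cause of these shifts was not tested.

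The replicate block gave 39 lower members at day 4. At day 2, where numbers did not pair the libraries, it gave 10 lower and 3 higher (14.1% and 16.9% of all genes). Between days it gave 13 lower and 2 higher in 4OHT organoids (23.8% and 26.1% of all genes) and 5 lower and 17 higher in DMSO organoids (24.8% and 29.0% of all genes).

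Of 1622 values of single members under alternatives, 7 changed sign, and 0 of these were called before. Kif23 at day 4 became -0.016 with library totals and was -0.022 to 0.029 with a library left out, below 0 without 4OHT replicate 1 or 2 or DMSO replicate 3 or 4. Mki67 at day 2 became -0.074 with the length trend removed and was -0.00053 to 0.11 with a library left out, below 0 without DMSO replicate 1.

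Each member had over 1000 counts in every library. The shares of counting error and of other spread between libraries were not separated.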
